A study of Homo sapiens with 4 samples.

Results

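The integrated stress response genes examined here are 10 genes, chosen by name: ATF4, ATF5, DDIT3, DDIT4, PPP1R15A, PPP1R15B, TRIB3, CHAC1, ASNS and XBP1. Of these, 9 had a row among the 13957 genes of the table analysed, and ASNS had none, so no value is given for it. The table comes from RNA-seq of 4 samples of MDA-MB-231 Fluc cells, a line from a triple-negative breast tumour that carries a luciferase gene for imaging. In 2 samples the cells were treated with 50 μM cordycepin (3′ deoxyadenosine) and in 2 with the vehicle DMSO, both for 2 h, and the labels do not say whether the duplicates were separate cultures. The authors' mean expression, in log2 CPM (read counts after scaling for library size, on a log2 scale), is 1 value for each gene over the libraries of the comparison. The columns on the difference between cordycepin and DMSO are the authors' own and were not used, so the levels below do not separate the treatments, have no SD, and describe the cells of both groups together.

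In the integrated stress response, kinases that sense amino acid shortage, unfolded protein, double-stranded RNA or lack of haem phosphorylate the translation initiation factor eIF2. This lowers translation of most mRNAs and raises that of a few with upstream open reading frames, of which ATF4 is the best known. ATF4 then drives genes of amino acid supply and of cell death, while PPP1R15A and PPP1R15B bring a phosphatase to eIF2 and end the response. XBP1 belongs to the neighbouring unfolded protein response, in which the kinase and nuclease IRE1 cuts its mRNA.

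The promoters of these genes are shown first where they hold a binding motif of this response, as the mean levels say nothing of how a gene is regulated. RefSeq (GRCh38.p14) gave a promoter of 300 bases, 250 before and 50 after the start, for 9764 genes of the table and for all 9 genes with a row. Each motif was searched on both strands. In the windows below, written 5′ to 3′ on the strand of the gene, the motif is in capitals.
CHAC1: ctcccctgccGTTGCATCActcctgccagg
PPP1R15B: ccgccccggcTGATGCAACctcacgctgcc
PPP1R15A: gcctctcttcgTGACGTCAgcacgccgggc
XBP1: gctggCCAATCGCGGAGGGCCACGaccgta

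The first 2 windows hold TGATGNAAN, the core of the C/EBP-ATF response element that ATF4 binds with a C/EBP partner. In CHAC1 it lies on the opposite strand (chr15:40953251-40953280, plus strand), 210 bases before the start, and in PPP1R15B on the strand of the gene (chr1:204412025-204412054, minus strand), 227 bases before it. Distances are from the RefSeq start, which for CHAC1 (40953471) lies 509 bases downstream of the start in the deposited table, so that this window is inside the CHAC1 gene as given in the table. For XBP1 the RefSeq start lies 28 bases downstream of it, and for PPP1R15A and PPP1R15B both starts are the same. The core was found in 1.60% of all promoters searched. The PPP1R15A window (chr19:48872352-48872381, plus strand) holds TGACGTCA, the cAMP response element bound by proteins of the CREB and ATF families, 58 bases before the start, a motif of 3.34% of all promoters. The XBP1 window (chr22:28800597-28800626, minus strand) holds the endoplasmic reticulum stress response element, CCAAT and CCACG with 9 bases between them, to which ATF6 binds with NF-Y, 52 bases before the start. It was found in 14 of the 9764 promoters (0.143%). Its first letters are also a CCAAT box. That shorter motif was in the promoters of 5 of the 9 genes (CHAC1, DDIT3, DDIT4, PPP1R15B and XBP1) and in 37.1% of all promoters. The ATF4, ATF5 and TRIB3 promoters held none of the motifs searched. A match is a stretch of letters and not a measured binding site, and no match concerns these windows alone.

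The levels of the 9 genes ran from 1.44 log2 CPM for CHAC1 to 7.21 log2 CPM for ATF4, and 1 of them was above the third quartile of all genes. All genes in the table had mean expression between 0.56 and 13.43 log2 CPM, with a median of 4.58, and the 9 genes had a median of 5.61. Of the 9, 5 were above the median of all genes and 4 below it, and they spread over 5.77 on the log2 scale. Because no value per library was used, whether neighbours in the order of levels differ beyond the spread between samples cannot be said.

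**Figure D1:**
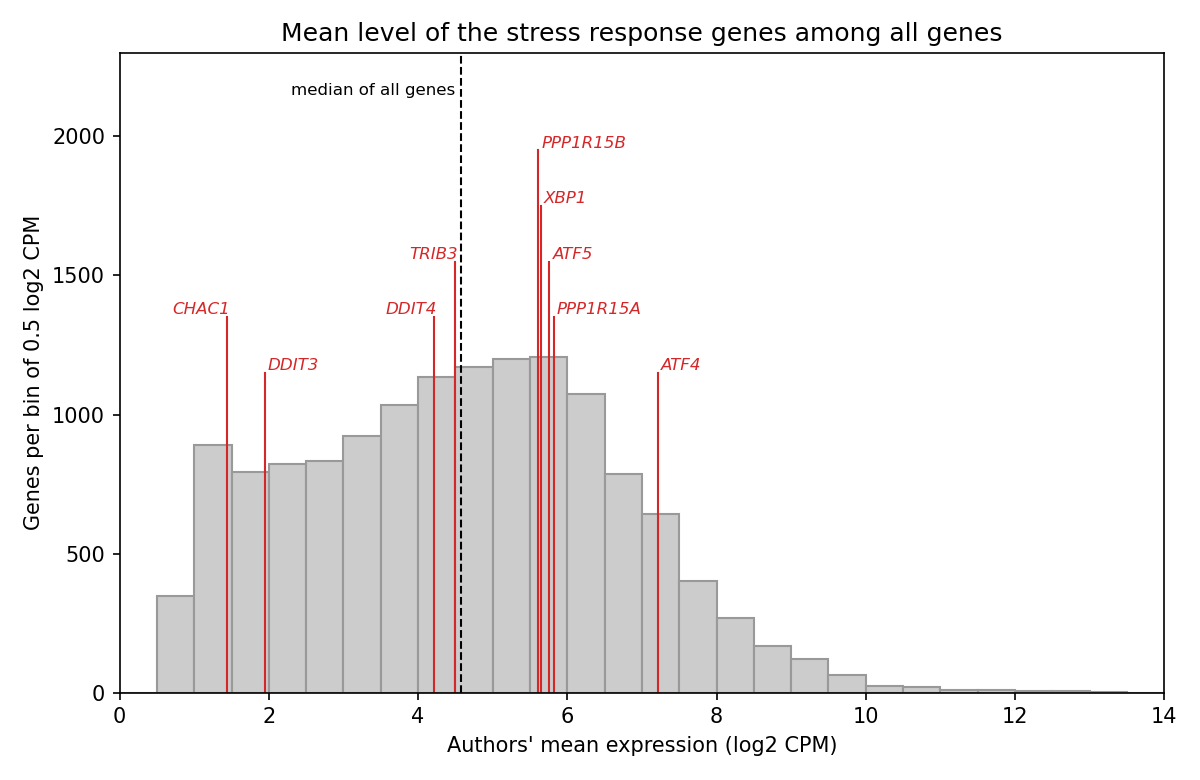
Histogram of the authors' mean expression (log2 CPM, bins of 0.5) of all 13957 genes, with a red line at the level of each of the 9 stress response genes and a dashed line at the median of all genes (4.58). ATF4 is at 7.21, PPP1R15B, XBP1, ATF5 and PPP1R15A lie together between 5.61 and 5.82, and DDIT3 and CHAC1 are at 1.95 and 1.44; the heights of the red lines carry no value.

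ATF4 (ENSG00000128272, chromosome 22, 39519695 to 39522685, GRCh38), the bZIP transcription factor at the centre of the response, was the highest, with a mean expression of 7.21 log2 CPM, which is 149 CPM, and 89.6% of all genes were below it. ATF5 (ENSG00000169136, chromosome 19, 49928702 to 49933935), a related bZIP factor whose mRNA is also translated under stress, had 5.76 log2 CPM, with 70.2% of genes below it. DDIT3 (ENSG00000175197, chromosome 12, 57516588 to 57521737, minus strand) encodes CHOP, a C/EBP family factor linked to cell death after prolonged stress. It had 1.95 log2 CPM (3.85 CPM), and 1949 of the 13957 genes were below it. So in mean expression, of the transcription factors, ATF4 was in the highest 25% of the table and DDIT3 in the lowest 25%. Per length, given below, DDIT3 was not in the lowest 25%, as 35.2% of genes were below it.

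The phosphatase subunits were close to each other in CPM. PPP1R15A (ENSG00000087074, chromosome 19, 48872421 to 48876058), the inducible subunit also called GADD34, had 5.82 log2 CPM. PPP1R15B (ENSG00000158615, chromosome 1, 204403381 to 204411817, minus strand), the constitutive subunit, had 5.61 log2 CPM. The share of genes below them was 71.3% and 67.5%. PPP1R15B is the longer gene, however, and their levels per length, given below, lie further apart.

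Among the targets and inhibitors, TRIB3 (ENSG00000101255, chromosome 20, 362835 to 397559), a pseudokinase that binds ATF4 and AKT, had 4.50 log2 CPM, with 48.5% of genes below it. DDIT4 (ENSG00000168209, chromosome 10, 72273924 to 72276036), also called REDD1 and an inhibitor of mTORC1, had 4.21 log2 CPM, with 43.7% of genes below it. CHAC1 (ENSG00000128965, chromosome 15, 40952962 to 40956512), an enzyme that degrades glutathione, was the lowest of the 9, at 1.44 log2 CPM (2.72 CPM), with 8.21% of genes below it. DDIT3 and CHAC1 were thus the members nearest to the lowest level in the table. The depth of the libraries is unknown, so no counting error can be put on them.

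XBP1 (ENSG00000100219, chromosome 22, 28794555 to 28800597, minus strand), a bZIP factor that induces chaperones and degradation factors of the endoplasmic reticulum, had 5.64 log2 CPM, with 68.1% of genes below it. Its mRNA exists with and without a segment of 26 bases that IRE1 removes, and a level for the whole gene does not tell these forms apart. GENCODE release 44 annotates both forms. The transcript named in the deposited table has the segment, at chr22:28796128-28796153 on the minus strand, and the canonical transcript lacks it. The ends of the segment are those of the annotation, and the exact cut sites of IRE1 were not examined. The segment, in the coding sequence, reads as follows.
XBP1 segment: gcagcactcagactacgtgcacctct
With it the annotated protein has 261 residues, and without it the reading frame shifts and the protein has 376.

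Levels of different genes can be compared only per length, so CPM was divided by the length in kilobases of all annotated exons of a gene, joined without overlap. On this scale ATF4 had 56.8 CPM per kilobase and 93.7% of the 13922 genes with a length were below it. ATF5 followed with 18.7, XBP1 with 16.5 and PPP1R15A with 16.4 CPM per kilobase. DDIT4 had 8.73, TRIB3 6.87 and PPP1R15B 5.24 CPM per kilobase, the last beside the median of all genes, which was also 5.24. The joined exons of PPP1R15B (9335 bases) are longer than its whole span in the deposited table (8437 bases), however. With the length in the deposited table PPP1R15B had 9.30 CPM per kilobase, and 64.1% of genes were below it. DDIT3 had 2.95 and CHAC1 1.32 CPM per kilobase, with 35.2% and 18.3% of genes below them. Thus 6 of the 9 were above the median per length, or 7 with PPP1R15B when the length of the canonical transcript or that in the deposited table was used, with ATF4 again first in the order and DDIT3 and CHAC1 again last.

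Members of the same branch differed widely in level per length. The ratio of ATF4 to ATF5 was 3.03, that of ATF4 to DDIT3 was 19.3 and that of ATF4 to CHAC1 was 42.9. PPP1R15A had 3.14 times the level per length of PPP1R15B with joined exons, and 2.58 times with the canonical transcript. That ratio was 1.98 with the lengths in the deposited table, as these are 5259 bases for PPP1R15B, against 9335 in the joined exons of GENCODE. The 9335 bases exceed the span of 8437 bases that the deposited table gives PPP1R15B, so the ratio of 3.14 rests on a length beyond that span. These ratios are between means of the same libraries and were not tested.

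**Figure D2:**
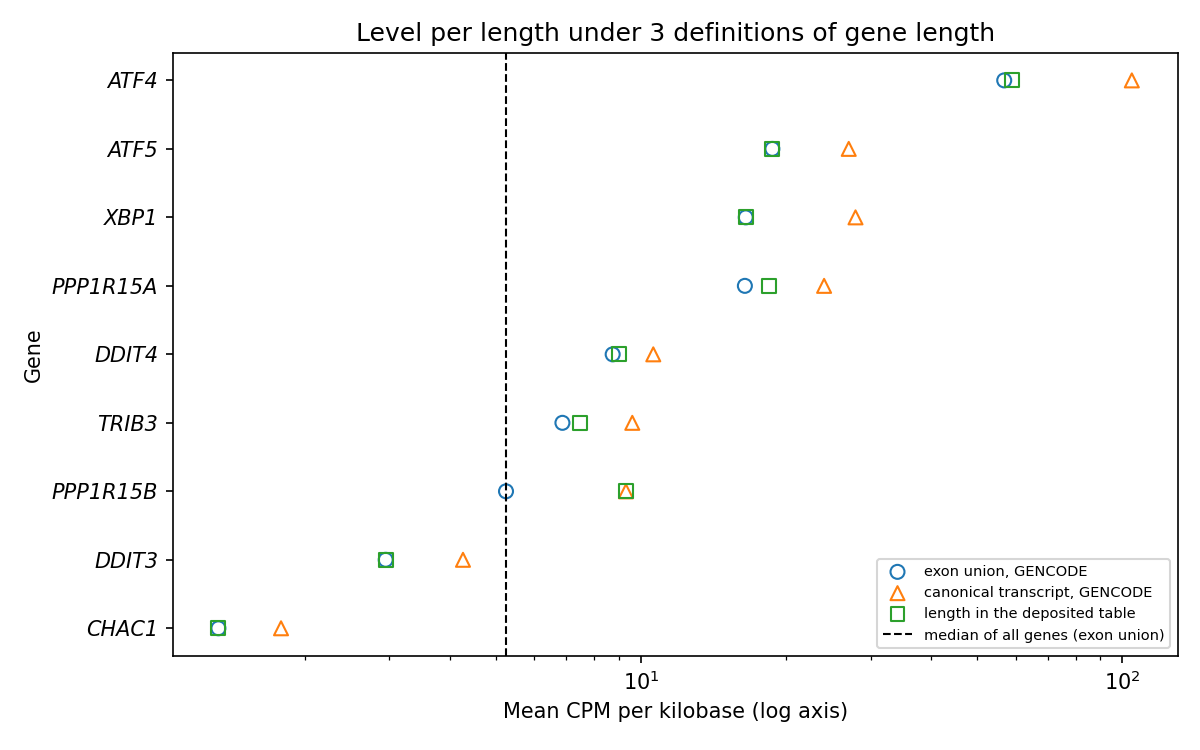
Mean CPM per kilobase (log axis) of each gene, with the length taken as the joined exons in GENCODE (circles), the canonical transcript (triangles) or the length in the deposited table (squares); the dashed line is the median of all genes for joined exons (5.24). ATF4 is highest and CHAC1 lowest with each length, and PPP1R15B moves from 5.24 to 9.30 with either of the others.

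Some genes share sequence or position with others, which matters for counted reads. GENCODE names 4 pseudogenes after ATF4, of which 1 had its own row in the table, and 1 after XBP1, which had none. The sources used here do not state how reads matching a gene and its pseudogene were counted. DDIT3 overlaps MARS1 and MBD6, and ATF5 overlaps NUP62, on the opposite strand, and these 3 genes had rows of their own. DDIT3 also overlaps a protein-coding gene on its own strand, ENSG00000285133, which had no row, and stranded counting does not separate such reads. The libraries were stranded, but the sources do not say whether strand was used in counting, and DDIT3 is the low partner of MARS1, which had 7.61 log2 CPM. The part of such reads in the level of DDIT3 was not tested.

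The annotated 5′ untranslated regions differ among the genes in a feature that the choice by name did not use directly. ATG triplets lie upstream of the coding sequence in the canonical transcripts of 6 of the 9 genes, compared with 40.7% of 11547 protein-coding transcripts in the table. All 6 had at least 2, which was so for 21.4% of all transcripts. ATF4 and DDIT3 had 3 each, of which 2 opened a frame that closed before the start codon and 1 a frame that ran past it out of phase. ATF5 had 2, 1 of each kind. In PPP1R15A, PPP1R15B and TRIB3 there were 2, and their frames all closed before the start codon. An overlapping frame was thus found in 3 genes, and in 12.4% of all transcripts. CHAC1, DDIT4 and XBP1 had none. The group is known for such upstream frames, so these counts describe it and are no independent finding.

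**Figure D3:**
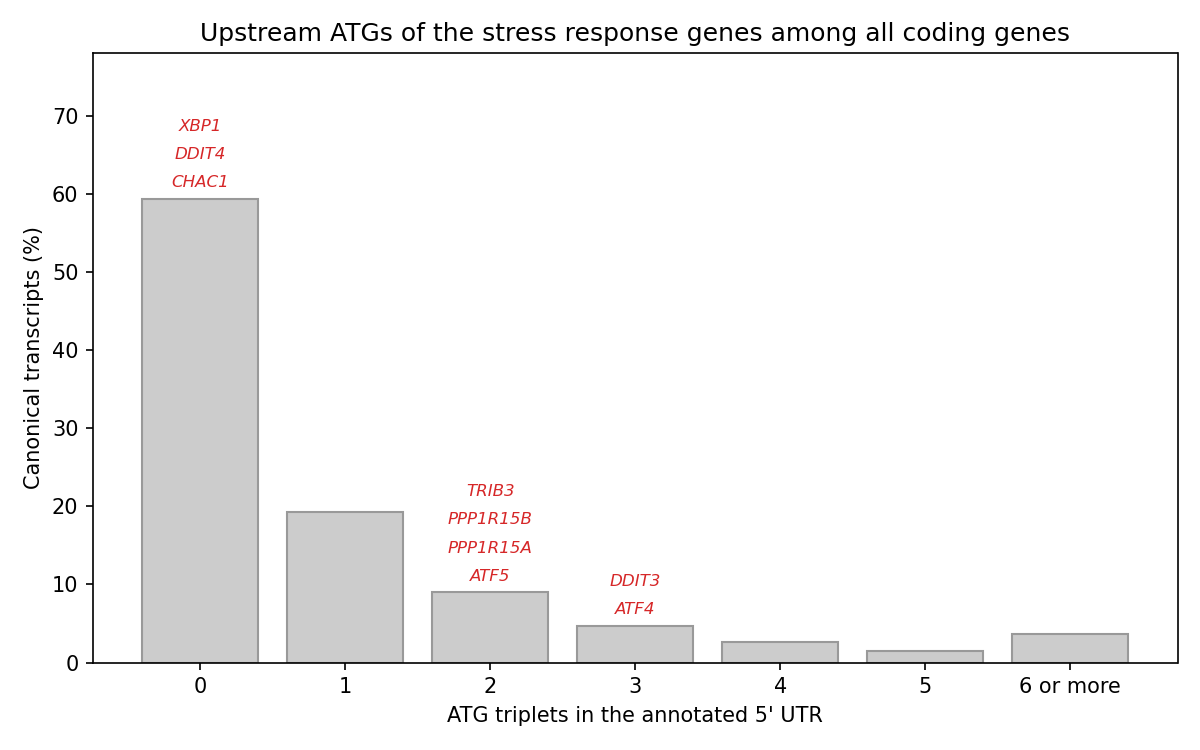
Percentage of the 11547 protein-coding canonical transcripts by the number of ATG triplets in the annotated 5′ untranslated region, with each stress response gene written above the bar of its own number. No upstream ATG was found in 59.3% of transcripts and in CHAC1, DDIT4 and XBP1, whereas ATF4 and DDIT3 are above the bar for 3.

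At the other end of the mRNA, the polyadenylation signal AATAAA was looked for in the last 50 bases of the canonical transcript, since cordycepin is studied as an inhibitor of poly(A) tail addition. It was present in 6 of the 9 genes and in 67.2% of all transcripts, and CHAC1, DDIT3 and XBP1 were without it. Variants of the signal and other annotated 3′ ends were not searched. The AU-rich pentamer ATTTA, bound by proteins that shorten mRNA life, was in the 3′ untranslated region of 5 of the 9 genes and of 73.9% of all transcripts. PPP1R15B had 11 copies in 2711 bases, XBP1 had 4 in 615 bases, PPP1R15A had 2 in 85 bases, DDIT3 had 2 in 216 bases and CHAC1 had 1 in 738 bases. The longer AU-rich nonamer TTATTTATT was in DDIT3 and CHAC1, once in each, and in 9.85% of all transcripts. These are also the genes with the lowest levels of the 9, but any relation between the nonamer and level was not tested.

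The other genes of the pathway give the setting for these levels. All 4 eIF2 kinase genes were in the table, and 3 were above the median of all genes per length. EIF2AK1, the kinase that senses lack of haem, was highest at 27.6 CPM per kilobase, and EIF2AK3, the endoplasmic reticulum kinase PERK, was lowest at 0.646. In mean expression 36.5% of all genes were below EIF2AK3, against 7.87% per length. For these other genes only the joined exon length was used, so the effect of another length on such values was not tested. The 8 genes of eIF2 and of its exchange factor eIF2B were all above the median per length, from 6.40 for EIF2B4 to 81.7 CPM per kilobase for EIF2S3. Of 6 genes whose proteins pair with or act beside ATF4, CEBPA and NUPR1 had no row. Per length, CEBPB was the highest of the others with 11.8 CPM per kilobase, followed by CEBPG, which had the highest mean expression of this list (5.19 log2 CPM), and ATF3 was the lowest with 0.856. ATF3 was therefore lower per length than each of the 9 genes, but in mean expression (1.77 log2 CPM) it was above CHAC1 (1.44 log2 CPM).

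ATF4 is known to induce many genes of amino acid supply, and whether it did so here was not tested. Transporters and aminoacyl-tRNA synthetases were mostly or all above the median of all genes per length, whereas the enzymes were spread around it. Per length, 6 of 10 enzymes of amino acid and folate metabolism were above the median of all genes, with PSAT1 of serine synthesis highest (78.4 CPM per kilobase) and CBS lowest (0.478). Of the 7 amino acid transporters 6 were above it, with SLC7A5, the large neutral amino acid transporter, at 226 CPM per kilobase and SLC1A4 at 2.27. All 12 aminoacyl-tRNA synthetases were above it, from 11.1 for CARS1 to 132 CPM per kilobase for TARS1. The median of these lists was 8.73, 43.0 and 23.2 CPM per kilobase, and that of the 9 genes was also 8.73.

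Of 7 further genes that respond to the pathway (SESN2, EIF4EBP1, GDF15, VLDLR, KLHL24, CCNG2 and STC2), GDF15 had no row. Of the other 6, 1 was above the median per length, EIF4EBP1, which encodes an eIF4E-binding protein, with 74.6 CPM per kilobase. STC2, a secreted glycoprotein, had the lowest mean expression of this list, 1.40 log2 CPM. Of 14 sensors and targets of endoplasmic reticulum stress, 11 were above the median per length. The chaperones HSP90B1 and CALR had 108 and 436 CPM per kilobase. ERN1, which encodes IRE1, had 0.585 CPM per kilobase and DNAJB9, a co-chaperone and target of XBP1, had 2.64. In mean expression 32.9% of all genes were below ERN1, against 6.81% per length. XBP1, at 16.5, was thus above ERN1 and DNAJB9 and below both chaperones.

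**Figure D4:**
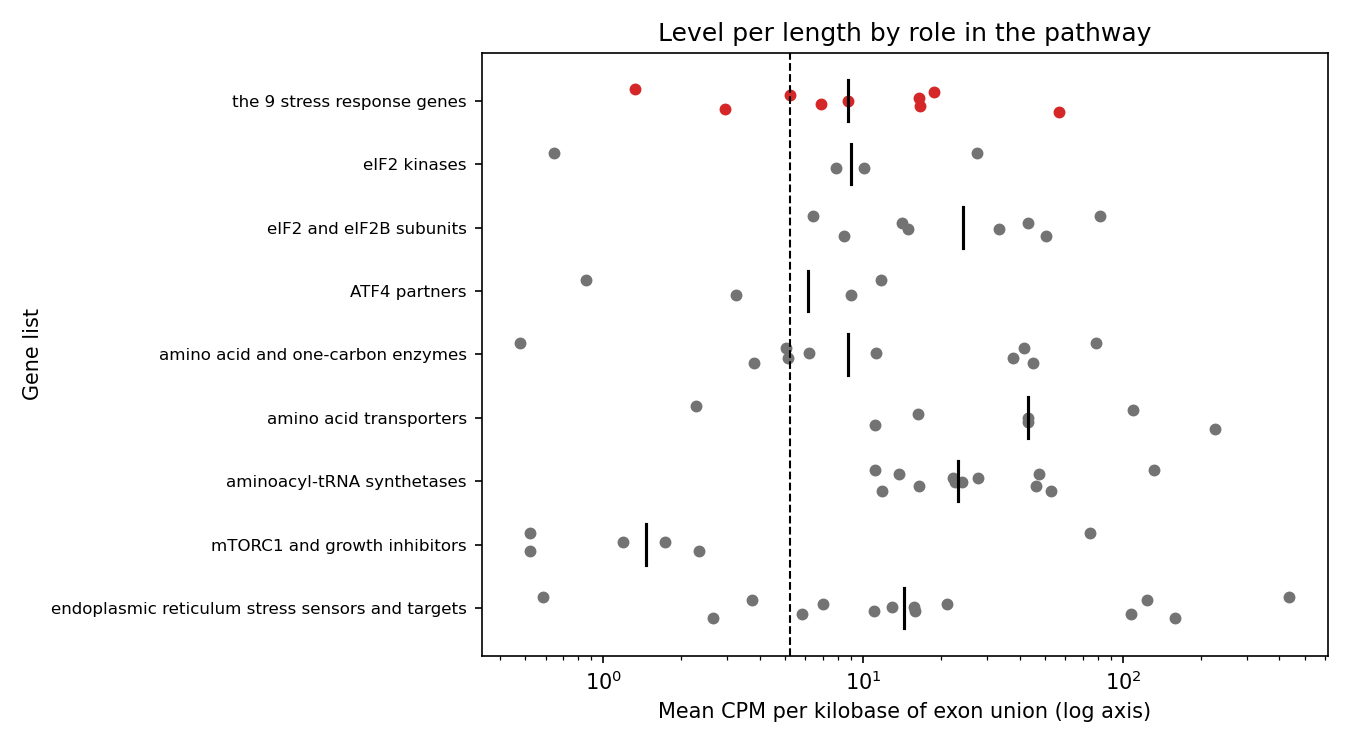
Mean CPM per kilobase of joined exons (log axis) for the genes of each list, 1 point per gene, with a short line at the median of the list and a dashed line at the median of all genes (5.24); the vertical offset of points carries no value. The 9 stress response genes (red) reach from 1.32 to 56.8, and all 12 aminoacyl-tRNA synthetases and all 8 eIF2 and eIF2B genes lie to the right of the dashed line.

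The identity of the cells was checked with markers of this line. All 8 genes taken as present, from PLAU (7.72 log2 CPM) to CD44 (10.57 log2 CPM), were in the highest 25% of the table. Of 8 genes taken as absent, ESR1, PGR, PTPRC and ALB had no row. A missing row gives no level for a gene, as the filter on low counts is not known. The other 4, GATA3, CDH1, ERBB3 and EPCAM, had rows at or below 4.48 log2 CPM, under the median of all genes, but per length GATA3 (6.59 CPM per kilobase) and EPCAM (5.27) were above the median of 5.24. Oestrogen and progesterone receptor genes were thus not among the genes of the table, and the luciferase gene was not examined.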

How the data were processed

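RNA of MDA-MB-231 Fluc cells was sequenced by the authors as 75 bp paired-end reads from stranded libraries depleted of ribosomal RNA, mapped to GRCh38.p13 and counted with rsubread. The submitters' processing notes also name TopHat, HTSeq, DESeq and Cufflinks with hg38, without their roles. The authors' deposited table holds, for each gene, a mean expression as log2 CPM, a length in bases and coordinates. The normalization and the filter on low counts are not given in the sources used here. Its 4 further columns hold the authors' comparison of cordycepin with DMSO (its log2 fold change, F statistic and p-values, raw and adjusted) and were not used. There were 0 columns of values per library, so depth is unknown and no test between groups was made.

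Mean log2 CPM was returned to a linear scale and divided by the joined exon length from GENCODE release 44 (13922 genes, 99.7%, matched by ID). In GENCODE, 5 of the 9 genes had the start and end given in the table, and the table's coordinates are printed. Upstream ATG triplets, ATTTA, the nonamer and AATAAA were counted in canonical transcripts. The search for promoter motifs was tested on simulated sequences and the counter of upstream ATG triplets on a short written sequence. The counts of ATTTA, the nonamer and AATAAA were not tested in this way. The identity between member proteins was planned and is not analysed here. The 10 genes and the other lists were chosen with earlier results of these data known. In each other list the genes with the highest and lowest mean level and those without a row are named. CALR, ERN1, CEBPB, MARS1, MBD6, NUP62, CDH1 and EPCAM were named after their values were seen. Alternatives, run for the 9 genes alone, were protein-coding genes or genes above the lowest 25% as background, and other gene lengths. The scripts ran under Python 3.11.15 with pandas 2.3.3, numpy 2.4.6 and, for figures, matplotlib 3.10.9.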

Additional observations from a re-analysis of the deposited data

How the results depend on the processing

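The median share of genes below the 9 stress response genes was 67.5% in mean level, 62.8% among protein-coding genes and 56.7% among genes above the lowest 25% of mean level. By construction, leaving out the lowest 25% lowers such a share. Protein-coding genes were selected by gene type and not by level. All 9 genes had lower shares with either background. Per length the median share was 63.3%, and 56.4% with the length of the canonical transcript. With protein-coding genes as background it was 62.7%, and with the length in the deposited table, chosen after seeing the data, 64.1%. Among protein-coding genes the share below DDIT3 was 8.82% and below CHAC1 4.83%. Above the lowest 25% it was 24.9% for DDIT4 and 31.4% for TRIB3. DDIT3 and CHAC1 are themselves in the lowest 25%, so their share there was 0%. No comparison between cordycepin and DMSO was made, so alternatives for such a comparison, leaving out a replicate among them, were not run. No paired analysis was possible because the columns used carry no values per sample. The depth is unknown, so it sets no stated limit.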
